A study of Neurospora crassa with 12 samples.

Results

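The genes described here were higher in wild-type (WT) Neurospora crassa with histidine as the only nitrogen source than on Avicel or with leucine, and their levels were compared with those in Δclr-5, the deletion strain of the Zn2Cys6 transcription factor gene clr-5. Members were chosen from the WT libraries alone. Levels were expressed as CPM (the count of a gene scaled to the total of its library), and a member had a mean of at least 20 CPM in WT on histidine and, after 1 CPM was added to every mean, at least 6 times the WT mean on Avicel and 6 times that on leucine. The rule was met by 114 of the 9730 genes in the count table, and 5618 genes had at least 20 CPM in WT on histidine. The same rule with leucine in the place of histidine was met by 89 genes, and 102 genes were at least 6 times higher on both amino acids than on Avicel. With CPM scaled by TMM (a factor per library that keeps most genes level) in the place of the column total, 67 genes met the rule, and all 67 were among the 114. Since these values chose the members, the media differences in WT and the strain differences, which share the WT libraries, are given as descriptions without a test. Only the comparisons of media within Δclr-5, whose libraries the rule did not use, were tested.

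The libraries came from mycelium that was pre-grown, washed and shifted for induction to 1× Vogel's salt with 2% Avicel, a microcrystalline cellulose, in 6 groups of 2 independent cultures. WT and Δclr-5 were each shifted to Vogel's salt with its own nitrogen source and Avicel, to nitrogen-free Vogel's salt with Avicel and 50 mM histidine, and to nitrogen-free Vogel's salt with Avicel and 50 mM leucine, so the Avicel group differs from the others in having the ammonium nitrate of the salt as well as in lacking an amino acid. The sample labels give 8 h of induction and the methods of the study a shorter time. Both strains came from a stock centre, and Δclr-5 is 1 strain. Its 6 libraries held 1.54 to 3.09 CPM of clr-5 (NCU05383) against 17.9 to 56.1 in WT, and 0 counts of the mating-type gene matA-1, which WT expressed, so the strains differ in more than clr-5. Total counts were 16797962 to 20381308 per library. The second Δclr-5 library on Avicel stood apart from its partner (chi-square per gene against counting noise 223.8 for that pair, 91.5 for WT on histidine and 15.2 to 37.6 for the other pairs), and values over Avicel printed here that moved by more than 1.5 times without it are given both ways.

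A fungus that has only an amino acid to draw nitrogen from takes it up through permeases and releases ammonium from it, and the carbon skeleton has to be broken down or excreted. Indoleamine 2,3-dioxygenase opens the indole ring of tryptophan, and mtr encodes the permease for neutral and aromatic amino acids. DNA repair in N. crassa was worked out from mutagen-sensitive (mus) and UV-sensitive (uvs) mutants, whose genes act in homologous recombination, end joining, excision repair, mismatch repair and translesion synthesis. Of the 114 members, 31 had a gene symbol in the OR74A reference, 37 had a symbol or a product name, and 77 had neither. The named members included 17 genes of DNA repair, 2 of tryptophan breakdown and amino acid uptake, 4 of the cell wall and 4 of development. These groups were formed after the members were known.

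The members together took 7.59% and 9.04% of all counts in the WT histidine libraries, 0.210% to 0.233% in WT on Avicel and 0.501% to 0.609% in WT on leucine. In Δclr-5 they took 15.4% and 14.2% on histidine, 0.624% and 4.08% on Avicel and 1.06% and 1.497% on leucine. The hydrophobin gene eas alone held 8.30% and 6.99% of the Δclr-5 histidine counts and 3.40% of the second Δclr-5 Avicel library, against at most 0.0960% in any WT library. The ratio of the WT histidine mean to the higher of the other WT means, each with 1 CPM added, ran from 6.03 to 591 with a median of 9.49. At the edge of the rule, the glutathione S-transferase gene gst-3, NCU09193 and NCU03873 were inside at ratios of 6.03, 6.04 and 6.04, while NCU07569, NCU06324 and NCU00249 were outside at 5.995, 5.90 and 5.89.

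**Figure D1:**
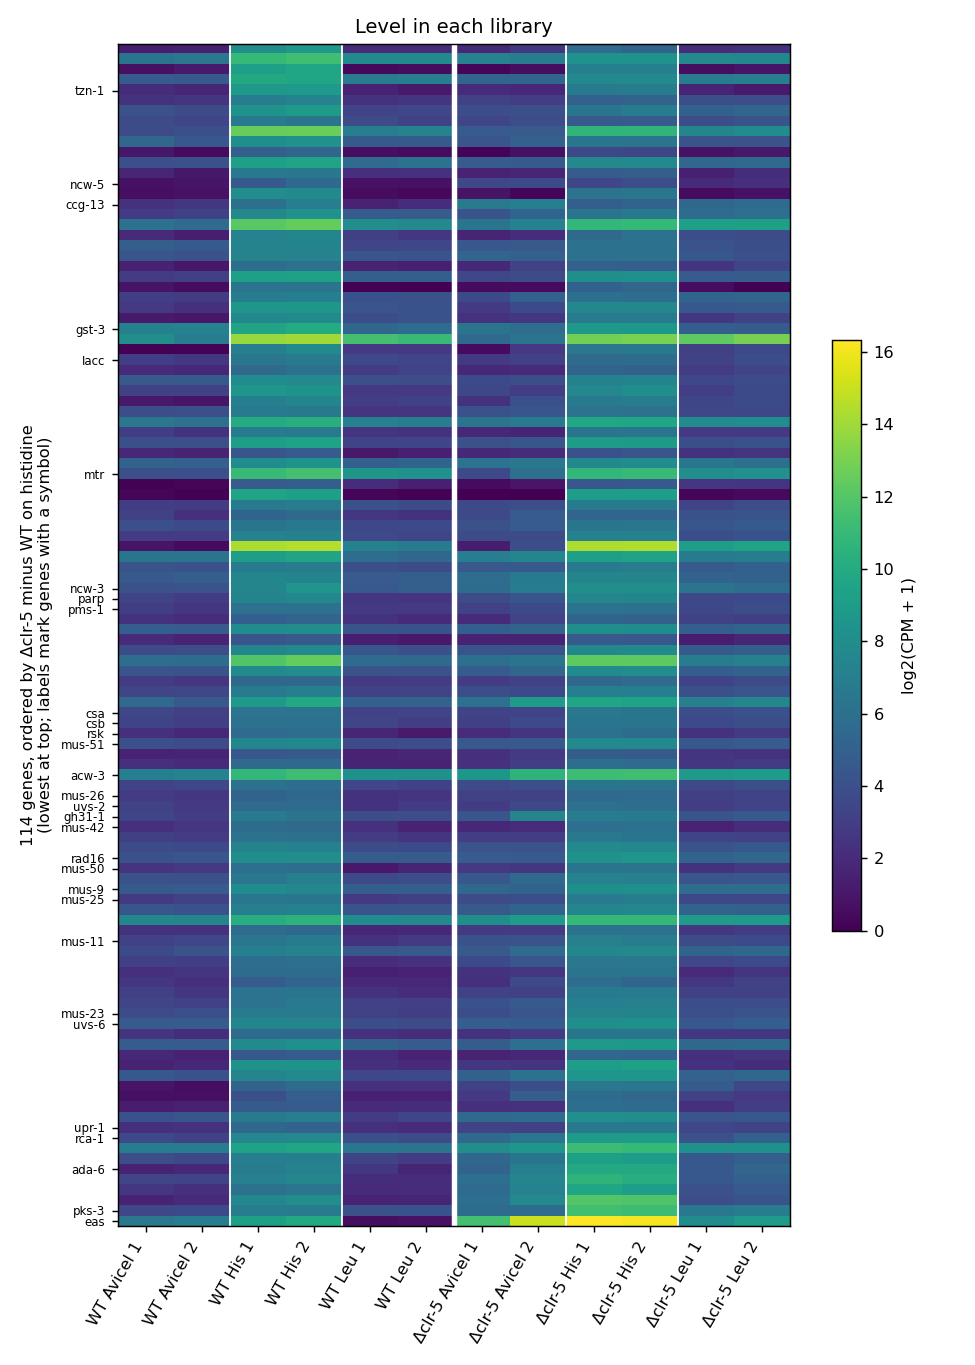
Levels of the 114 members in the 12 libraries, as log2(CPM + 1), with genes in rows ordered by the difference between Δclr-5 and WT on histidine and gene symbols given where the reference has one. The 2 histidine columns of each strain are brighter than the Avicel and leucine columns in most rows, and the rows at the foot of the plot (pks-3 and eas) are brightest in Δclr-5.

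In Δclr-5, which the rule did not use, histidine still raised nearly all of the members. With edgeR's quasi-likelihood test over the 8805 genes that passed its filter on low counts, and genes called where the adjusted p was below 0.05 and the log2 fold change at least 0.5 in size, 106 of the 114 members were higher on histidine than on Avicel and 1 was lower, where 27.2% of all genes tested were higher and 27.6% lower. Against leucine, 109 members were higher and 0 were lower, where 23.6% of all genes tested were higher and 29.4% lower. All 114 members passed the filter, also when the filter saw only the Δclr-5 libraries. Both calls were made for 102 members, against 16.1% of all genes. The median log2 fold change of the members was 2.82 over Avicel and 2.87 over leucine, against 0.03 and -0.04 for all genes tested. The comparisons share the Δclr-5 histidine libraries. Leucine against Avicel in the same strain gave 20 members higher and 25 lower, where 19.5% of all genes were higher and 17.8% lower, with a member median of -0.15. Of the 9730 genes, 1.05% met the selection rule in Δclr-5 when its own 3 media were used, and 62 of these 102 genes were members. That is 54.4% of the members and 60.8% of the Δclr-5 list. Scaling by library size alone moved the median of all genes in the comparison of histidine with Avicel from 0.03 to 0.38 and the numbers of all genes higher and lower from 2397 and 2433 to 3481 and 1682, with 108 members higher and 1 lower. Without the second Δclr-5 Avicel library 111 members were higher than on Avicel, and without the first 103 were.

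**Figure D2:**
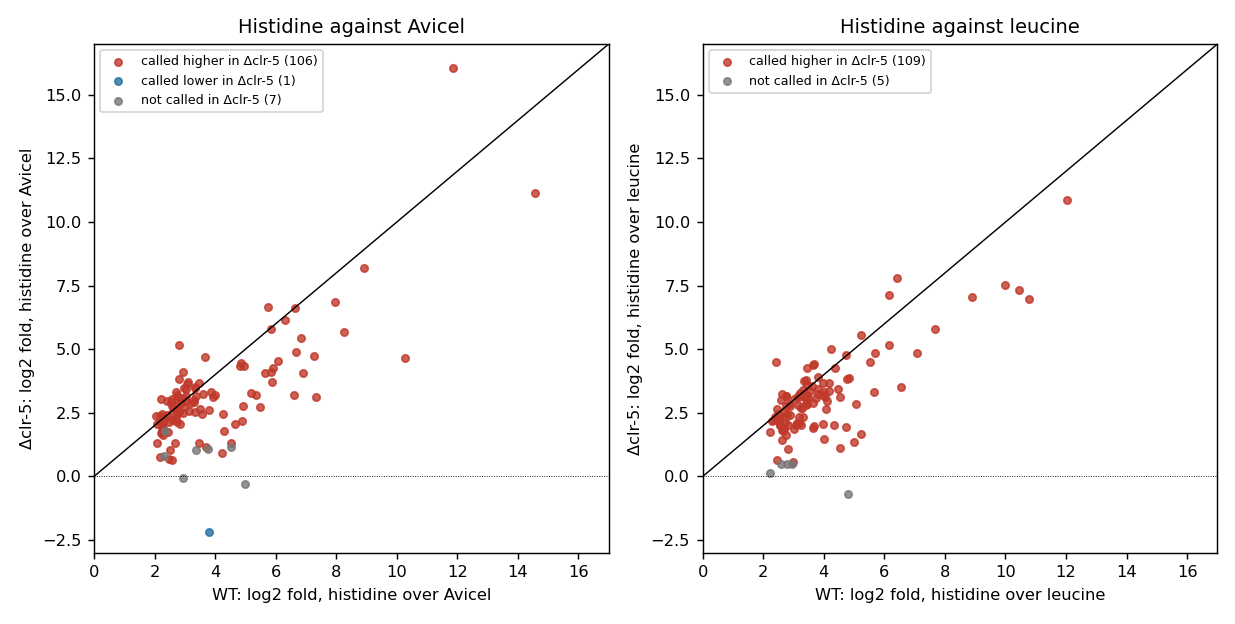
Fitted log2 fold change of each member on histidine over Avicel (left) and over leucine (right), in WT on the x axis and in Δclr-5 on the y axis, with the line of equal response. Points are coloured by the Δclr-5 call (106 higher, 1 lower and 7 not called at left; 109 higher and 5 not called at right), and the x values were fixed above zero by the choice of members.

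The highest member per kilobase of gene in WT on histidine was NCU01402, the gene of indoleamine 2,3-dioxygenase (chromosome V from 3935439 to 3937165), at 12672 CPM per kilobase. Its CPM were 20304 and 23464 on histidine, 0.812 and 0.409 on Avicel and 143 and 105 on leucine in WT. In Δclr-5 they were 20711 and 21778 on histidine, 1.33 and 14.2 on Avicel and 572 and 753 on leucine. This gene was also higher on leucine than on Avicel in both strains, far below its level on histidine, and the histidine libraries of the strains overlapped. In Δclr-5 the log2 fold change on histidine was 11.12 (standard error 0.99, adjusted p = 7.36e-06) over Avicel and 4.87 (standard error 0.75, adjusted p = 0.000355) over leucine. The value over Avicel was 13.51 without the second Δclr-5 Avicel library and 10.28 without the first. The permease gene mtr (NCU06619, chromosome IV from 1825042 to 1827519) followed the same order. It had 2140.3 and 2903 CPM on histidine, 15.1 and 15.1 on Avicel and 399.7 and 304 on leucine in WT, and 1843 and 2113 on histidine, 11.3 and 63.3 on Avicel and 267 and 309 on leucine in Δclr-5. Its level on histidine was slightly lower in both Δclr-5 libraries than in both WT libraries, and in Δclr-5 it rose by 5.43 (standard error 0.64, adjusted p = 6.23e-05) over Avicel and by 2.64 (standard error 0.56, adjusted p = 0.00275) over leucine on the log2 scale. The Avicel cultures of Δclr-5 lay apart for mtr as well, and its value over Avicel was 7.01 without the second of them and 4.70 without the first.

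The members were also compared with 4 lists of genes of nitrogen and amino acid use. In Δclr-5, 27.2% of all genes tested were higher and 27.6% lower on histidine than on Avicel. Against leucine the shares were 23.6% and 29.4%. Of 14 genes of nitrogen regulation and assimilation, 0 were members, and in Δclr-5 6 were higher and 4 lower on histidine than on Avicel, and 2 higher and 7 lower than on leucine. Of 5 genes of histidine metabolism, 0 were members, with 2 higher and 2 lower than on Avicel (2 and 1 without the second Δclr-5 Avicel library) and 0 higher and 4 lower than on leucine. Those 5 genes were his-2, his-3, his-6, his-7 and NCU11365, which the study annotates as an aminotransferase, and the counts hold for them alone. NCU11365 had WT means of 1.46 CPM on Avicel, 836 on histidine and 792 on leucine. It missed the rule because its leucine level was also high. Of 10 genes of amino acid metabolism that the study names, 0 were members. In Δclr-5, 1 was higher and 6 lower on histidine than on Avicel, and 0 were higher and 9 lower than on leucine. mtr was the single member among 8 amino acid permease genes, of which 5 were higher and 1 lower than on Avicel and 2 higher and 4 lower than on leucine. The general amino acid permease gene pmg was the other permease gene called higher on histidine than on leucine, with a log2 fold change of 1.56.

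Other abundant members have no name. NCU10040 (chromosome IV from 5939000 to 5940994) had 14464 and 16287 CPM on histidine, 2966 and 2057 on leucine and 273 and 117 on Avicel in WT, and 7460.3 and 8574 on histidine, 4896 and 8298 on leucine and 47.6 and 77.3 on Avicel in Δclr-5. In Δclr-5 its leucine and histidine libraries overlapped, and the log2 fold change on histidine was 6.67 (standard error 0.49, adjusted p = 1.17e-06) over Avicel and 0.15 (standard error 0.38, adjusted p = 0.756) over leucine. NCU09115 (chromosome I from 5379535 to 5382753) overlapped between the strains on histidine, at 3867 and 5627 CPM in WT and 5091 and 5068 in Δclr-5, and lay between 49.0 and 136 CPM in the other libraries of both strains. Its span overlaps NCU09116 in the reference, and reads of overlapping genes may not be told apart, since no source used here says whether counting took strand into account. The spans of 21 members overlap another gene in this way, among them gst-3, ncw-5, uvs-6, mus-25, mus-26, gh31-1, NCU00250, NCU00282, NCU00935 and NCU02888. NCU00282 (chromosome III from 3295658 to 3300914) had 1065 and 1252 CPM in WT and 859 and 824 in Δclr-5 on histidine. NCU03873, named above for its place near the threshold, had 1183 and 1527 CPM in WT and 1859.9 and 1923 in Δclr-5.

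The largest change relative to both other media in WT was that of NCU09854 (chromosome V from 5964225 to 5966551), which has no name. It had 731 and 587 CPM on histidine and at most 3 counts in any WT library on Avicel or leucine. In Δclr-5 it had 557 and 536 CPM on histidine, 0.196 and 0.324 CPM on leucine and 0 counts in both Avicel libraries. Against a floor of 3 counts over that group, it was at least 6849-fold higher on histidine than on Avicel in Δclr-5. With this gene set at that bound, the median of the members over Avicel was again 2.82. NCU05477 (chromosome II from 1701098 to 1702690) was likewise near zero outside histidine in both strains, with 331 and 316 CPM in WT and 564 and 643 CPM in Δclr-5 on histidine against at most 4.97 CPM in any other library.

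The group with most names was DNA repair. Each of its 17 members was called higher on histidine than on Avicel and on leucine in Δclr-5. Their log2 fold changes were 2.19 to 4.12 over Avicel and 2.23 to 4.42 over leucine. Of all 114 members, 106 were called higher than on Avicel and 109 than on leucine. Among all genes tested the shares were 27.2% and 23.6%. The repair genes include mus-9, which encodes a damage checkpoint kinase of the ATR type, and parp, a poly(ADP-ribose) polymerase. Genes of homologous recombination and break processing included mus-11 (the homolog of RAD52), mus-25 (RAD54), uvs-6 (RAD50) and mus-23 (MRE11), and mus-51 encodes the Ku70 subunit of non-homologous end joining. Genes of translesion synthesis and damage tolerance were mus-42 (REV1), upr-1 (REV3), mus-26 (REV7) and uvs-2 (RAD18). Others were csa and csb, named for the Cockayne syndrome proteins of transcription-coupled repair, rad16, whose yeast namesake acts in nucleotide excision repair, the mismatch repair gene pms-1, and mus-50.

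In WT on histidine the CPM of the recombination gene mus-11 (NCU04275, chromosome V from 5464383 to 5466903) were 84.5 and 99.3, against 7.94 and 10.1 on Avicel and 4.25 and 5.71 on leucine. In Δclr-5 they were 137 and 123 on histidine, 16.2 and 17.4 on Avicel and 12.9 and 11.9 on leucine. Both Δclr-5 histidine libraries lay above both WT histidine libraries, and within Δclr-5 the log2 fold change of mus-11 was 2.59 (standard error 0.19, adjusted p = 1.09e-06) over Avicel and 3.24 (standard error 0.19, adjusted p = 3e-07) over leucine. The Ku70 gene mus-51 (NCU08290, chromosome IV from 2520412 to 2522837) had 176 and 199.9 CPM on histidine in WT and 218 and 215 in Δclr-5, and between 12.2 and 25.2 CPM in the other 8 libraries. In Δclr-5 its log2 fold change was 2.87 (standard error 0.14, adjusted p = 4.42e-08) over Avicel. The REV1 gene mus-42 (NCU02053, chromosome I from 1526760 to 1531289) had 53.3 and 48.1 CPM in WT and 61.1 and 67.4 in Δclr-5 on histidine, against 2.02 to 5.08 CPM elsewhere, and had the largest log2 fold changes of the group in Δclr-5, 4.12 (standard error 0.29, adjusted p = 9.51e-07) over Avicel and 4.42 (standard error 0.30, adjusted p = 5.88e-07) over leucine. The polymerase gene upr-1 (NCU01951, chromosome I from 1889062 to 1895162) had 45.1 and 34.9 CPM in WT and 96.1 and 97.9 in Δclr-5 on histidine, the largest ratio between the strains in the group, 2.39. The kinase gene mus-9 (NCU11188, chromosome I from 7782698 to 7790990), at 244 and 188 CPM in WT and 285 and 297 in Δclr-5, was already at 37.1 to 56.6 CPM in the Δclr-5 Avicel and leucine libraries.

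**Figure D3:**
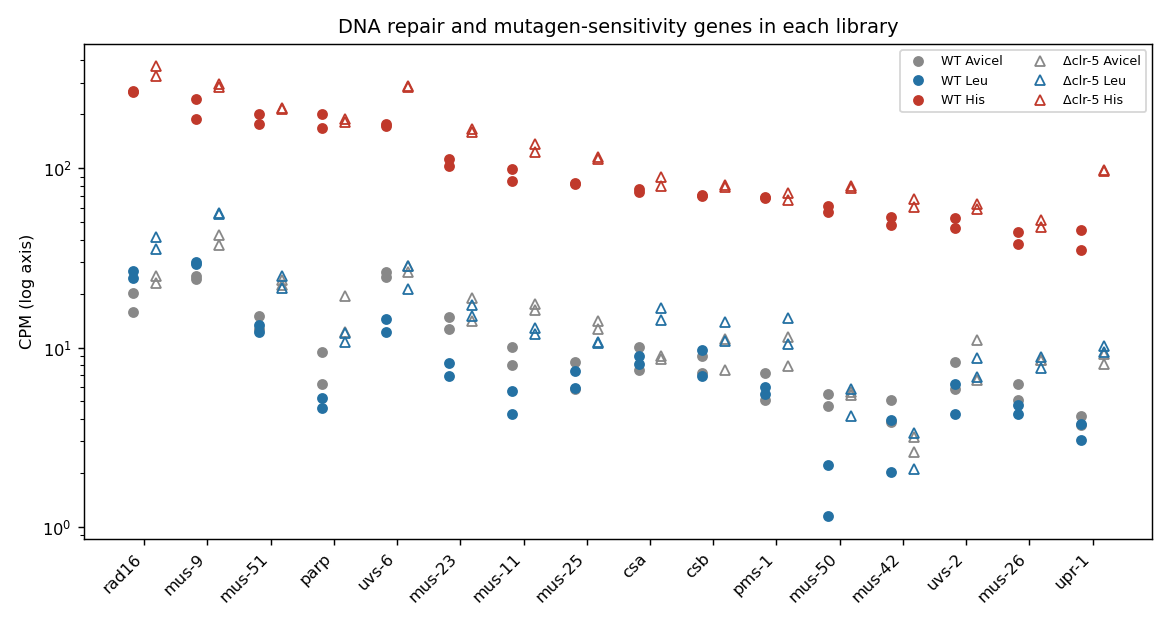
CPM of 16 of the DNA repair members in each of the 12 libraries on a log axis, with WT as filled circles, Δclr-5 as open triangles, and histidine in red, leucine in blue and Avicel in grey. For each gene all 4 histidine libraries lie above all 8 libraries of the other media, and the Δclr-5 histidine libraries lie above both WT histidine libraries for 14 genes.

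On histidine the ratio of Δclr-5 to WT in this group ran from 1.00 to 2.39, with both Δclr-5 libraries above both WT libraries for 15 genes and below for 0, where 32.3% of all genes tested were above in this way and 35.6% below. The remaining 2 were parp (168 and 201 CPM in WT and 189 and 182 in Δclr-5) and pms-1 (69.4 and 68.0 CPM in WT and 73.0 and 67.0 in Δclr-5). The strain difference was not limited to histidine, though the rule chose low WT levels on the other media. With TMM scaling, both Δclr-5 libraries were above both WT libraries for 14 genes on leucine and 9 on Avicel. They were below for 0 and 1. Over all genes tested, 36.6% were above and 34.4% below on leucine, and 27.2% and 26.1% on Avicel. Of all 114 members, 82 were above and 12 below on leucine, and 68 and 13 on Avicel, so this was not particular to the repair genes. Median log2 strain differences of the 17 repair genes were 0.37 on histidine, 0.61 on leucine and 0.37 on Avicel. Leucine against Avicel in Δclr-5 gave 1 of the 17 higher and 4 lower, where 19.5% of all genes tested were higher and 17.8% lower. A list of 44 genes with symbols of DNA repair or mutagen sensitivity, drawn up after the members had been seen, holds these 17. Over all genes tested in Δclr-5, 27.2% were higher and 27.6% lower on histidine than on Avicel, and 23.6% and 29.4% than on leucine. Among the other 27 genes of the list, 12 were higher and 2 lower than on Avicel, with a median of 0.42. Against leucine, 10 were higher and 4 lower, with a median of 0.29. Of these 27 genes, mus-52, the Ku80 partner of mus-51, and mus-41 stood just outside the rule in WT, with ratios of 5.13 and 5.40. Their log2 fold changes over Avicel were 1.80 and 2.12 in Δclr-5. The photolyase gene phr and the UV endonuclease gene mus-18, which act on UV lesions, were the 2 genes called lower than on Avicel, at -2.22 and -2.32. These 4 genes were picked after their values had been seen. Of 13 heat shock and stress genes, 0 were members, and in Δclr-5 4 were higher and 4 lower on histidine than on Avicel, and 4 higher and 3 lower than on leucine.

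The members differed in how their level on histidine compared between the strains. Both Δclr-5 histidine libraries were below both WT libraries for 46 members (40.4%, against 35.6% of all genes tested). They were above for 48 (42.1%, against 32.3%) and overlapped for 20. The median log2 difference was 0.04, against -0.03 for all genes tested, and the quartiles were -0.93 and 0.48. The ratio of the Δclr-5 mean to the WT mean, with 1 CPM added to each, was 0.5 or less for 27 members, between 0.5 and 2 for 74 and 2 or more for 13. The counts of libraries above, below or overlapping used TMM-scaled levels, and the ratios used CPM scaled to the column total. The rule chose members that were low in WT on Avicel and leucine and high on histidine. That choice favours Δclr-5 above WT on Avicel and leucine and below WT on histidine. Shares over all genes, which were not so chosen, are therefore no like reference. On Avicel both Δclr-5 libraries were above both WT libraries for 68 members and below for 13, where 27.2% of all genes were above and 26.1% below. On leucine they were above for 82 and below for 12, against 36.6% and 34.4%. With levels scaled by library size alone, the counts were 76 above and 9 below on Avicel, where 40.5% of all genes were above and 15.3% below, and 94 above and 8 below on leucine, where 57.0% were above and 19.3% below. In bulk RNA, more cells of a kind and more RNA per cell cannot be told apart. The WT histidine cultures differed from each other by more than 1.5 times for 11 members, and the Δclr-5 histidine cultures for 0.

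**Figure D4:**
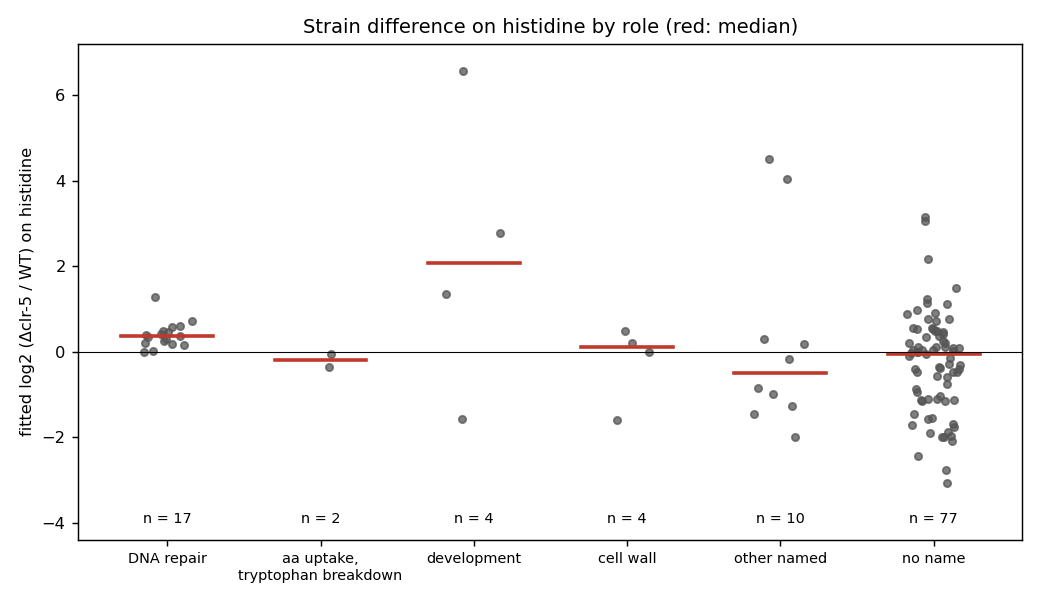
Fitted log2 ratio of Δclr-5 to WT on histidine for each member, by role group, with a red bar at the group median and the number of genes below. The DNA repair genes lie at -0.00187 to 1.27, and genes without a name spread from -3.08 to 3.15.

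The lowest ratios between the strains were 0.122 for NCU08413, 0.147 for NCU05899, 0.188 for NCU02880, 0.236 for NCU02888 and 0.252 for the zinc transporter gene tzn-1, followed by NCU06079, NCU05185, NCU04085, NCU04342 and NCU05863 at 0.255 to 0.277. NCU08413 (chromosome II from 3978001 to 3979124) had 276 and 466 CPM on histidine in WT and 51.5 and 36.9 in Δclr-5, against 1.39 to 5.35 CPM in the other libraries. Even so, in Δclr-5 it rose on histidine, with a log2 difference of 3.13 (standard error 0.32, adjusted p = 1.51e-05) over Avicel. tzn-1 (NCU07621, chromosome IV from 296219 to 298712) had 436 and 429 CPM in WT and 102 and 115 in Δclr-5 on histidine and 1.24 to 3.42 CPM elsewhere, and in Δclr-5 it rose by 4.88 (standard error 0.26, adjusted p = 1.21e-07) over Avicel and by 5.81 (standard error 0.28, adjusted p = 1.1e-07) over leucine on the log2 scale. For NCU08413 and tzn-1 the level on histidine was lower in Δclr-5 than in WT, while the difference between media was still present. NCU05899 (chromosome VII from 4216449 to 4219228) had smaller differences between media in Δclr-5. Its CPM were 1945 and 2580.1 on histidine, 76.9 and 87.8 on Avicel and 223 and 218 on leucine in WT, and 341 and 324 on histidine, 153 and 119.8 on Avicel and 208 and 199 on leucine in Δclr-5, where the log2 difference was 0.92 (standard error 0.21, adjusted p = 0.00283) over Avicel and 0.57 (standard error 0.20, adjusted p = 0.0346) over leucine. The last of these was below the call when any of 5 libraries was left out (both Δclr-5 histidine, both Δclr-5 leucine and the second WT leucine library), with log2 fold changes from 0.49 to 0.64. NCU04342 (chromosome IV from 3714554 to 3716704) was among the most abundant, with 5840.4 and 6580.4 CPM in WT and 1678 and 1647 in Δclr-5 on histidine and 183 and 232 CPM in Δclr-5 on leucine.

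At the other end, 10 members had ratios of 2.39 to 95.6, among them upr-1. The polyketide synthase gene pks-3 (NCU04865, chromosome IV from 525092 to 533876) had 116 and 105 CPM in WT and 2669 and 2388 in Δclr-5 on histidine, and in Δclr-5 53.9 and 54.8 CPM on Avicel and 90.6 and 114 on leucine. The cultures of a group differed little, and its log2 fold change on histidine in Δclr-5 was 5.18 (standard error 0.19, adjusted p = 2.57e-08) over Avicel and 4.49 (standard error 0.18, adjusted p = 7.43e-08) over leucine. The next gene, ada-6 (NCU04866, chromosome IV from 536988 to 539552), encodes a transcription factor of asexual and sexual development. It had 114 and 154 CPM in WT and 933 and 918 in Δclr-5 on histidine, with 36.0 and 128 on Avicel and 21.5 and 40.1 on leucine in Δclr-5, and a log2 difference of 3.19 (standard error 0.53, adjusted p = 0.000582) over Avicel, which was 4.24 without the second Δclr-5 Avicel library and 2.59 without the first. NCU00848 (chromosome I from 6967984 to 6970315), annotated as the membrane protein TmpA, which is known from conidiation in Aspergillus nidulans, had 196 and 271 CPM in WT and 4016 and 3724 in Δclr-5 on histidine. In Δclr-5 it had 62.9 and 209 CPM on Avicel and 13.5 and 17.7 on leucine, and a log2 difference of 7.82 (standard error 0.54, adjusted p = 1.24e-06) over leucine. rca-1 (NCU01312, chromosome V from 3617075 to 3618886), a Myb-like regulator related to a conidiation regulator of Aspergillus, had 191 and 205 CPM in WT and 495 and 518 in Δclr-5 on histidine, and NCU00935 had 704 and 828 CPM in WT and 2399.7 and 1966 in Δclr-5.

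The hydrophobin gene eas (NCU08457, chromosome II from 3570905 to 3572798), which encodes the rodlet layer of the conidial surface, had the widest difference between the strains. Its CPM on histidine were 637 and 959.6 in WT and 82991 and 69879.5 in Δclr-5. On Avicel they were 87.6 and 123 in WT and 2873 and 34015 in Δclr-5, and on leucine 0.491 and 0.714 in WT and 251 and 506 in Δclr-5. The Δclr-5 Avicel cultures were far apart, and the histidine and leucine libraries of that strain did not overlap. In Δclr-5 the log2 fold change was 7.53 (standard error 1.06, adjusted p = 0.00022) over leucine and 1.77 (standard error 0.82, adjusted p = 0.0887) over Avicel, which missed the call. Without the second Δclr-5 Avicel library it was called at 4.29, and it was also called by DESeq2 (1.76). Markers of conidiation summed to more in Δclr-5 than in WT in each medium, with eas and without it. The summed CPM of 10 conidiation genes were 278 and 295 in WT on Avicel, 1022 and 1346 on histidine and 772 and 713 on leucine, and in Δclr-5 3442 and 36125 on Avicel, 83834 and 70644 on histidine and 1399.7 and 1929 on leucine. Without eas the other 9 summed to 173 to 771 CPM in WT, to 569 and 2110.4 on Avicel in Δclr-5, to 843 and 765 on histidine in Δclr-5 and to 1149 and 1423 on leucine in Δclr-5. None of the 10 was at 0 in any library. Their part in the results for eas, ada-6, NCU00848 and rca-1 was not tested. Among all genes tested in Δclr-5, 27.2% were higher and 27.6% lower on histidine than on Avicel, and 23.6% and 29.4% than on leucine. Of the 10 conidiation genes, 0 were higher and 3 lower on histidine than on Avicel, and 3 were higher and 2 lower than on leucine. The count over Avicel turned on single libraries. Without the second Δclr-5 Avicel library 5 were higher (csp-1, acon-3, eas, fl and con-6) and 2 lower, and without the first 0 were higher and 7 lower. Of 10 light-response genes, 0 were members, with 4 higher and 2 lower than on Avicel (7 and 2 without the second Δclr-5 Avicel library) and 3 higher and 2 lower than on leucine.

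In all, 12 members, eas among them, were not called higher than both media in Δclr-5. The clock-controlled gene ccg-13 (NCU08907, chromosome V from 678921 to 680033) was the one called lower. It had 64.1 and 127 CPM on histidine, 4.12 and 5.20 on Avicel and 2.13 and 3.16 on leucine in WT, and 29.5 and 35.5 on histidine, 103 and 132 on Avicel and 43.8 and 51.4 on leucine in Δclr-5. Histidine was the highest of its media in WT and the lowest in Δclr-5, with log2 fold changes on histidine of -2.20 (standard error 0.30, adjusted p = 0.000111) over Avicel and -0.69 (standard error 0.29, adjusted p = 0.0622) over leucine. The value over leucine missed the call here, and ccg-13 was called lower with only the 6 Δclr-5 libraries (-0.65) and without either WT histidine library (-0.69). The cell wall protein gene ncw-5 had 23.5 and 47.3 CPM on histidine in WT and 9.97 and 13.3 in Δclr-5, where the Avicel libraries held 10.3 and 11.9 CPM. The glycoside hydrolase gene gh31-1, the GPI-anchored cell wall protein gene acw-3, NCU01483, NCU00250 and NCU17205 were called over leucine but not over Avicel, as were eas and ncw-5, and the second Δclr-5 Avicel library exceeded the first for each of these 7. The calls over leucine were lost for NCU01483 and NCU17205 when any 1 of the Δclr-5 histidine or leucine libraries was left out (log2 fold changes of 1.87 to 2.27 and 1.03 to 1.15), and for gh31-1 without either Δclr-5 leucine library (2.17 and 2.48). With only the 6 Δclr-5 libraries, NCU01483 (2.09) and gh31-1 (2.36) were not called either. gh31-1 had 19.8 and 175 CPM in those libraries against 113 and 112 on histidine, and acw-3 had 393 and 1601 CPM on Avicel against 2413 and 2610.2 on histidine. Without that library, acw-3, gh31-1, NCU01483, NCU00250 and NCU17205 had log2 fold changes over Avicel of 2.23, 2.07, 2.96, 2.69 and 1.34, and all 5 were called. Without the first library in its place, gh31-1 was called lower at -0.90. With all 12 libraries, acw-3 was also called over Avicel by DESeq2 (1.01) and with library size scaling (1.33), and NCU17205 with library size scaling (1.11). NCU10040, NCU09182, NCU08549 and NCU04085 were called over Avicel but not over leucine, with log2 fold changes over leucine of 0.15, 0.49, 0.49 and 0.50. The call of NCU04085 over Avicel was lost without the first Δclr-5 Avicel library (0.53) and without either Δclr-5 histidine library (0.73 and 0.60). Of the other cell wall members, ncw-3 had 180.0 and 359 CPM in WT and 266 and 273 in Δclr-5 on histidine, and NCU01395, annotated with a WSC domain, 129.9 and 159.7 CPM in WT and 199.8 and 209.9 in Δclr-5.

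The remaining named members were within a factor of 3 between the strains on histidine. Each was called higher than both media in Δclr-5, as were 16.1% of all genes tested. gst-3, a glutathione S-transferase gene, had 729.8 and 1040.3 CPM in WT and 465 and 424 in Δclr-5. The laccase gene lacc had 82.5 and 100.2 CPM in WT and 49.7 and 53.0 in Δclr-5, and rsk, the gene of resistance to Spore killer, 51.2 and 56.7 CPM in WT and 68.5 and 54.6 in Δclr-5. NCU00876, annotated as a ferric reductase, had 107 and 119.7 CPM in WT and 102 and 100.2 in Δclr-5, the methyltransferase gene NCU01598 152 and 177 CPM in WT and 49.3 and 71.0 in Δclr-5, and NCU00723, annotated as Znf1p, 168 and 163 CPM in WT and 66.6 and 70.9 in Δclr-5. The 77 members without a name had WT histidine means from 21.0 CPM up. In Δclr-5, 74 of them were higher on histidine than on Avicel and 73 higher than on leucine. Among all genes tested, 27.2% and 23.6% were.

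Members lay on all 7 chromosomes, from 9 of the 1028 genes on chromosome II to 30 of the 2347 on chromosome I. Next to another member stood 25 of them, in 11 runs, of which 3 runs held 3 genes. How often genes chosen without regard to level would be neighbours was not tested. The runs are given by how their members compared between the strains. On chromosome VII, NCU09274, NCU09273 and NCU09272 (from 114609 to 125416) had WT means on histidine of 162, 77.4 and 129 CPM and Δclr-5 means of 1365, 690.2 and 581 CPM, so all 3 were higher in Δclr-5. pks-3 and ada-6 on chromosome IV, given above, were also neighbours and both higher in Δclr-5. NCU02880 (chromosome I from 8823648 to 8824866) had 587 and 805 CPM in WT and 129.7 and 129.7 in Δclr-5 on histidine, and at most 1.23 CPM in the other libraries. Its neighbour NCU02879 had a mean of 79.3 CPM in WT and 36.5 in Δclr-5 on histidine, and NCU02877, with 1 gene that is no member between them, means of 5145 and 1879. NCU02888 (chromosome I from 8797615 to 8799259), close to these genes but not adjacent, had means of 887 and 208 CPM. On chromosome III, NCU09182, NCU09183 and NCU09184 (from 276773 to 282805) had means of 249.9, 152 and 169.9 CPM in WT and 86.1, 109 and 92.7 in Δclr-5 on histidine.

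**Figure D5:**
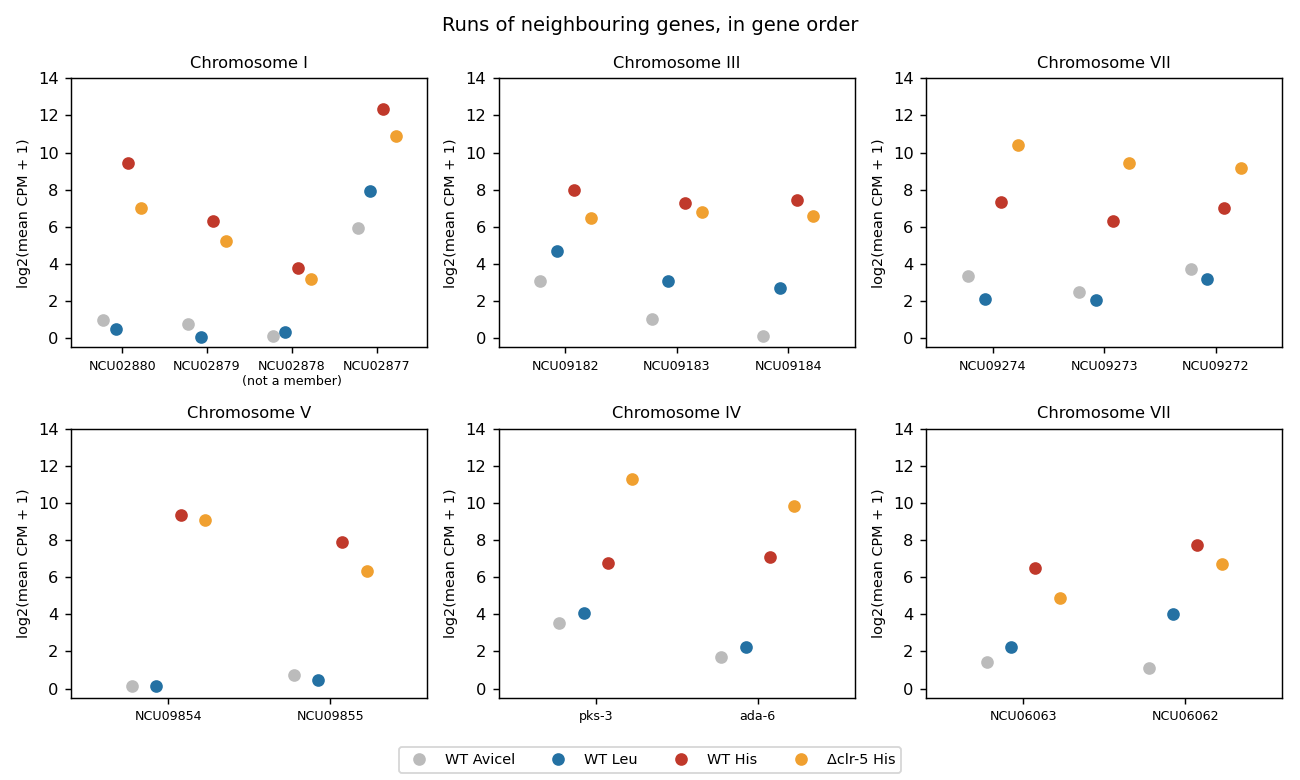
Means of 2 libraries, as log2(CPM + 1), for 6 runs of neighbouring members in gene order, in WT on Avicel, leucine and histidine and in Δclr-5 on histidine. In the run of NCU09274 and that of pks-3 the Δclr-5 histidine means lie above those of WT, and in the other 4 runs they lie below.

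In the other 7 runs, NCU09854 was followed by NCU09855 on chromosome V, at a mean of 236 CPM in WT and 79.2 in Δclr-5 on histidine. NCU06063 and NCU06062 on chromosome VII had 90.5 and 210.3 CPM in WT and 28.3 and 104 in Δclr-5, and NCU08549 and NCU16710 on chromosome III 126 and 65.0 in WT and 58.3 and 29.6 in Δclr-5. NCU03649 lay beside rad16 on chromosome V, at 199 CPM in WT and 207 in Δclr-5. NCU10852 lay beside NCU09115 on chromosome I, at 173 and 172 CPM. NCU00856, NCU16430 and NCU00855 on chromosome I, of which the first 2 overlap, had 115, 45.2 and 58.7 CPM in WT and 115, 48.6 and 35.2 in Δclr-5. NCU07078 and NCU07077 on chromosome VI had 22.0 and 47.2 CPM in WT and 25.3 and 54.7 in Δclr-5.

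The 5 genes outside the set whose means over the 6 groups were most like the member median, by Pearson's r of log2(mean CPM + 1) among genes with at least 20 CPM in WT on histidine, were preg (annotated as a regulatory protein), pex20, NCU00029 (a ZIP metal ion transporter), NCU02626 and NCU05244, with r from 0.996 to 0.998. The groups share libraries and scaling with the members, and the WT ratios of these 5 genes were 2.15 to 4.53.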

How the data were processed

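RNA-seq of WT and Δclr-5 mycelium was analysed from a table of raw counts of 12 libraries deposited by the authors. Reads were aligned with TopHat2 2.0.8b and reads unique to 1 gene were counted with HTSeq 0.13.5, per the submitters' processing notes. The strand setting is not given in the sources used here. Of 9730 genes, 9729 were paired by locus with symbols and coordinates of the OR74A reference (NC12 assembly), and some product names came from the annotation of the study.

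edgeR 4.0.16 (R 4.3.3) was run on all 12 libraries with TMM scaling, filterByExpr (925 genes left out) and the robust quasi-likelihood F test (6 residual degrees of freedom, common biological coefficient of variation 0.174), adjusted by Benjamini-Hochberg over 8805 genes. Standard errors are approximate (size of the log2 fold change over the root of F). p-values measure the spread between 2 cultures a group. The script was tested on simulated data.

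The members and gene lists were chosen with earlier results of these data known. Named are clr-5, the 15 members highest in WT on histidine and the 10 with the largest WT ratio. The 10 largest and 10 smallest strain differences on histidine are named too, as are members with a name, a list place or a member as neighbour. Outside the members, 3 genes either side of the threshold and 5 like-patterned genes are named. Genes of the lists that are no members are named for some lists only. Single genes outside this are named as such. Alternatives were DESeq2 1.42.0, RLE or library size scaling, no filter, only the Δclr-5 libraries, a replicate block, adjusted p alone, leaving out each library, and other member rules. Promoter and protein sequences were not used here. 1 member that the naming rule takes in is not reported here.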

Additional observations from a re-analysis of the deposited data

Results flagged for a closer look

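For 3 members the fitted difference between histidine and Avicel was opposite in the strains. ccg-13 was higher on histidine than on Avicel in both WT libraries and lower in both Δclr-5 libraries, with a log2 fold change of -2.20 in Δclr-5, and against leucine the Δclr-5 value was -0.688. ncw-5 was higher on histidine than on Avicel in WT, while its Δclr-5 value was -0.278, which did not pass the test there (adjusted p = 0.458 from edgeR). Its Δclr-5 histidine libraries lay below the Avicel libraries with TMM scaling and overlapped them in CPM. gh31-1, whose Δclr-5 libraries overlapped, had a Δclr-5 value of -0.08. The WT direction was set by the choice of members, and the difference between the strains was not tested.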

How the results depend on the processing

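The number of members called higher on histidine in Δclr-5 was 103 to 111 against Avicel and 105 to 110 against leucine when 1 library was left out. The number called lower was 1 to 2 against Avicel and 0 to 1 against leucine, and 1 against leucine with only the 6 Δclr-5 libraries and with the replicate block. On leucine against Avicel, 14 members were lower with library size scaling alone, and 17 to 31 with 1 library left out. A fold threshold of 4 gave 246 members, one of 10 gave 49, TMM-scaled CPM gave 67, and leaving out 1 WT library gave 103 to 126. Replicate numbers did not pair the Δclr-5 samples. The correlation of deviations between same-numbered Δclr-5 libraries was -0.13 for Avicel with histidine, 0.15 for Avicel with leucine and -0.03 for histidine with leucine. Over all pairs of groups it ran from -0.24 (Δclr-5 with WT, both on Avicel) to 0.37 (Δclr-5 on Avicel with WT on histidine). With the replicate block 108 and 109 members were higher against Avicel and leucine, and the value of gh31-1 against Avicel turned from -0.08 to 0.0608. The block also brought calls for eas (2.24) and acw-3 (1.15) against Avicel and for ccg-13 (-0.70) against leucine. gh31-1 was also above 0 with library size scaling (0.212), and ran from -0.901 to 2.07 with 1 library left out, ncw-5 against Avicel turned to 0.0718 with library size scaling, and NCU10040 against leucine ran from -0.151 to 0.529 with 1 library left out, below 0 without the first Δclr-5 leucine library. Where a group was left with 1 library, it was assumed to vary like the other groups. The cause of these changes was not tested. In DESeq2, RLE scaling and the fit without a filter, 106 to 108 members were higher against Avicel and 109 against leucine. Each group holds 2 cultures, which limits the precision of every value.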
